A study of Mus musculus with 8 samples.

Results

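The 10 neutrophil granule genes described here are Mpo, Elane, Prtn3, Ctsg and Ms4a3, treated as primary granule genes, and Ltf, Camp, Ngp, Lcn2 and Mmp8, taken as secondary granule genes. They were chosen by name, each through the probe set that carried its symbol alone in the platform's annotation, and all 10 were found among 19938 genes. Each had 1 such probe set. Of the 8 arrays, 4 were labelled KLF7 and 4 were labelled control, and both groups carry the numbers 1 to 4. The KLF7 arrays hold RNA of C57Bl/6 mouse bone marrow cells transduced with a lentivirus for KLF7, a zinc finger transcription factor of the Krüppel-like family, and the control arrays that of cells which received a control virus. In both groups c-Kit-positive cells were transduced, and Lin- c-Kit+ Sca-1+ cells, the fraction that holds stem cells and early progenitors, were sorted 72 hours later. The labels name no marker by which transduced cells were told from others. Nor do they tie an array to a culture or an animal, and p-values here cover only array-to-array spread, part of which may be technical.

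Neutrophils store their antimicrobial proteins in granules that are filled in a fixed order while the cell matures. The primary, or azurophil, granules are filled at the promyelocyte stage with myeloperoxidase and serine proteases, whose genes are already transcribed in granulocyte and monocyte progenitors under Cebpa, Myb and Runx1. The secondary, or specific, granules are filled later, at the myelocyte stage, under Cebpe, and their genes are used as signs of cells beyond the progenitor stage. A lineage-negative, c-Kit-positive gate is meant to keep the early cells and to remove the late ones. Ms4a3 encodes a membrane protein of granulocyte and monocyte progenitors and no granule content, and it is grouped here with the primary genes because it is expressed with them.

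No granule gene separated all arrays labelled KLF7 from all those labelled control, which 5.22% of all genes did. All 5 primary genes had a lower mean on the KLF7 arrays (49.6% of all genes did), led by Mpo (2.16-fold) and Elane (2.03-fold), whose sizes depended on single arrays. For 4 of the 5 secondary genes it was higher (50.4% of all genes), led by Lcn2 (1.83-fold) and Mmp8 (1.51-fold), whose sizes also depended on single arrays. The median difference of the 5 secondary genes turned from 0.52 to -0.36 without KLF7 3. None of the 10 passed the test over all genes, nor did any other of the 19938 genes, and the arrays of the groups overlapped for all 10. The number of the array held a larger share of the variation than its group for all 10, as it did for 16349 of all 19938 genes. All but Ctsg and Mmp8, 8 of the 10 genes, were highest on the arrays numbered 3 in both groups (7.4% of all genes were). Mmp8 was highest on the arrays numbered 4 in both groups. Levels are log2 of the deposited intensities, differences are KLF7 minus control in log2 units, and the test is that of limma over all 19938 genes with Benjamini-Hochberg adjustment and a threshold of 0.05.

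The labels were checked first on Klf7, the transduced gene. Its log2 levels were 11.43, 10.19, 11.05 and 10.52 on KLF7 arrays 1 to 4, against 8.53, 10.28, 9.35 and 7.98 on control arrays 1 to 4. The array labelled KLF7 2 thus lay below the array labelled control 2, and no other pair of arrays crossed. The difference was 1.76 (SE 0.46, adjusted p 0.327 in limma), and an exact two-sided permutation test over the 70 splits gave a p of 0.0571, where the smallest it can give is 0.0286. Every direction below is therefore one between labels. The array medians lay between 5.77 and 5.85, and pairs of arrays correlated over genes at 0.936 to 0.982. Of the sort markers, Kit lay at 7.85 to 10.52 on KLF7 arrays and at 8.33 to 9.85 on control arrays, lowest on the array numbered 4 in both groups. Cd34, a progenitor surface gene, lay at 9.27 to 10.71 on KLF7 arrays and at 9.53 to 10.95 on control arrays. Ly6a, which encodes Sca-1, was not analysed here.

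The promoters of 6 of the genes are shown. Mpo and Elane are the primary genes with the largest differences. Ltf, Ngp, Lcn2 and Mmp8 are the secondary genes in which a C/EBP motif was found. Each secondary promoter shown thus holds that motif by choice, and Camp, which lacks it, is left out. Each run gives the 250 bases before the start of the gene, 5′ to 3′ on the gene's own strand, from RefSeq in build GRCm38.p6. Capitals mark matches, on either strand, to C/EBP (TTGCNNAA), PU.1 (GAGGAA), MYB (TAACNG) and KLF/SP (CCNCNCCC) motifs.
Mpo promoter, chr11:87793534-87793783, plus strand: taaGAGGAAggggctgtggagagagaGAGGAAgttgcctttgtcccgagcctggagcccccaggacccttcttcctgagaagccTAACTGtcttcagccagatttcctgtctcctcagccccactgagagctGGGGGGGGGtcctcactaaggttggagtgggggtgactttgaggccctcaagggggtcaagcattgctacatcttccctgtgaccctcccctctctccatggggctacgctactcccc
Elane promoter, chr10:79886062-79886311, plus strand: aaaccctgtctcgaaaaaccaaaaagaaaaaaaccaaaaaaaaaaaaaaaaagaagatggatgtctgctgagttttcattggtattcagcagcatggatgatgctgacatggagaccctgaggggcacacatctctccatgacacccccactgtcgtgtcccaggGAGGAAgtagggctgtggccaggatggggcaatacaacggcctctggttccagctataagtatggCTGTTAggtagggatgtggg
Ltf promoter, chr9:111019042-111019291, plus strand: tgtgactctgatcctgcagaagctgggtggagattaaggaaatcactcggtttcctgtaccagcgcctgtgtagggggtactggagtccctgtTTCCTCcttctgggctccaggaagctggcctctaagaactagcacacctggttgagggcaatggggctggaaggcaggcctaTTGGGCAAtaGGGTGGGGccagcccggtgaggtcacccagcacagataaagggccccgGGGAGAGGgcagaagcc
Ngp promoter, chr9:110419558-110419807, plus strand: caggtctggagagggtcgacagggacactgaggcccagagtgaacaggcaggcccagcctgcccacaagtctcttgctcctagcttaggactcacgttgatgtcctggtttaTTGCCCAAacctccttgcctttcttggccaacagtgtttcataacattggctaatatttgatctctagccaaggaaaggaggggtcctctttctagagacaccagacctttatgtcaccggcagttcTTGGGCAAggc
Lcn2 promoter, chr2:32387740-32387989, minus strand: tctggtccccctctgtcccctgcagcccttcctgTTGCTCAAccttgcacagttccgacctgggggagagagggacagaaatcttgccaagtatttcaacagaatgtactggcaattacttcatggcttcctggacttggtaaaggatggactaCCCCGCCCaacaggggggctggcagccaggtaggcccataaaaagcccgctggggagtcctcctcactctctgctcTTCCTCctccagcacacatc
Mmp8 promoter, chr9:7558179-7558428, plus strand: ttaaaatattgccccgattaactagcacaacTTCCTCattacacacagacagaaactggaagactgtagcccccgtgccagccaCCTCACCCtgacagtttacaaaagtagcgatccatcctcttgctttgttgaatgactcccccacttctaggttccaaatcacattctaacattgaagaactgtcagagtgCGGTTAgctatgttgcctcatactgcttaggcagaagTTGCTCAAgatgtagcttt

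C/EBP factors drive granulocyte genes, PU.1 (encoded by Spi1) drives myeloid genes in general, and KLF factors, KLF7 among them, bind the same kind of GC-rich and CACCC-containing letters as SP factors. The C/EBP letters were in 0 of the 5 primary and 4 of the 5 secondary promoters, and in 9.56% of the 32851 promoter windows of the same length. In Ngp they occurred at 2 places, with first bases 138 and 11 bases before the start. In Lcn2 they began 216 bases before it, in Ltf 75 and in Mmp8 19. The PU.1 letters were in 4 of the 5 primary and 3 of the 5 secondary promoters, against 23.3% of all windows. The MYB letters were in 2 of 5 primary promoters (Mpo and Elane) and 1 of 5 secondary ones (Mmp8), against 19.8%. The KLF/SP letters were in 2 of 5 primary promoters (Mpo and Ctsg) and 4 of 5 secondary ones (all but Ngp), against 45.9%. In Mpo the KLF/SP letters matched at 2 overlapping places within a single run of G, and no other matches overlapped. A match is a description of the letters and not a binding site, and a link between the letters and the levels on the arrays was not tested.

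Mpo encodes myeloperoxidase, which makes hypochlorous acid in the phagosome. It had log2 levels of 9.52, 11.62, 11.79 and 8.72 on KLF7 arrays 1 to 4, against 11.95, 11.99, 12.41 and 9.73 on control arrays 1 to 4. The arrays numbered 4 were the lowest of both groups, and KLF7 1 lay nearly as low as KLF7 4 while control 1 did not. The means were 10.41 ± 1.53 on KLF7 arrays and 11.52 ± 1.21 on control arrays (SD, n = 4 each), a difference of -1.11 (SE 0.75, 95% interval -2.77 to 0.56, adjusted p 0.792 in limma). Each KLF7 array lay below the control array of its number, by -2.43, -0.37, -0.62 and -1.01 for numbers 1 to 4. The difference of the means was -0.54 without KLF7 4 and -1.71 without control 4.

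Elane encodes neutrophil elastase and lies next to Prtn3 in the RefSeq annotation. Log2 levels were 8.30, 10.14, 10.61 and 7.50 on KLF7 arrays 1 to 4, against 10.59, 10.87, 11.56 and 7.61 on control arrays 1 to 4. As for Mpo, the array numbered 3 was the highest and the array numbered 4 the lowest in both groups. The difference was -1.02 (SE 0.88, 95% interval -2.96 to 0.92, adjusted p 0.869 in limma), and each KLF7 array again lay below the control array of its number, by -2.29, -0.73, -0.94 and -0.11. The mean difference was -0.47 without KLF7 4 and -1.87 without control 4.

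Prtn3 encodes proteinase 3, a serine protease closely related to elastase. The log2 levels were 8.39, 10.34, 10.35 and 10.23 on KLF7 arrays 1 to 4, against 10.27, 10.17, 11.11 and 9.32 on control arrays 1 to 4. KLF7 arrays 2 to 4 were nearly level and KLF7 1 stood alone below them. The difference was -0.39 (SE 0.48, adjusted p 0.935 in limma), and it was 0.091 without KLF7 1. Although Prtn3 and Elane are neighbours, they differed on the arrays numbered 4: KLF7 4 was above control 4 by 0.91 for Prtn3 and below it by 0.11 (difference -0.11) for Elane.

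Ctsg encodes cathepsin G, the third of the classical granule serine proteases. Its log2 levels were 8.95, 11.16, 10.79 and 9.22 on KLF7 arrays 1 to 4, against 10.52, 11.05, 11.26 and 9.16 on control arrays 1 to 4. The arrays numbered 4 were again low in both groups, with KLF7 1 beside them. The difference was -0.47 (SE 0.57, adjusted p 0.934 in limma), and it was -0.11 without KLF7 1.

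Ms4a3 had log2 levels of 7.30, 8.52, 8.74 and 8.50 on KLF7 arrays 1 to 4, against 8.74, 8.34, 9.47 and 6.95 on control arrays 1 to 4. KLF7 1 and control 4 were the low arrays, and the groups had nearly the same mean, 8.27 ± 0.65 on KLF7 arrays and 8.38 ± 1.06 on control arrays (SD, n = 4 each). The difference was -0.11 (SE 0.49, adjusted p 0.985 in limma), and its sign turned without KLF7 1 (0.21), control 1 (0.01) or control 3 (0.26).

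**Figure D1:**
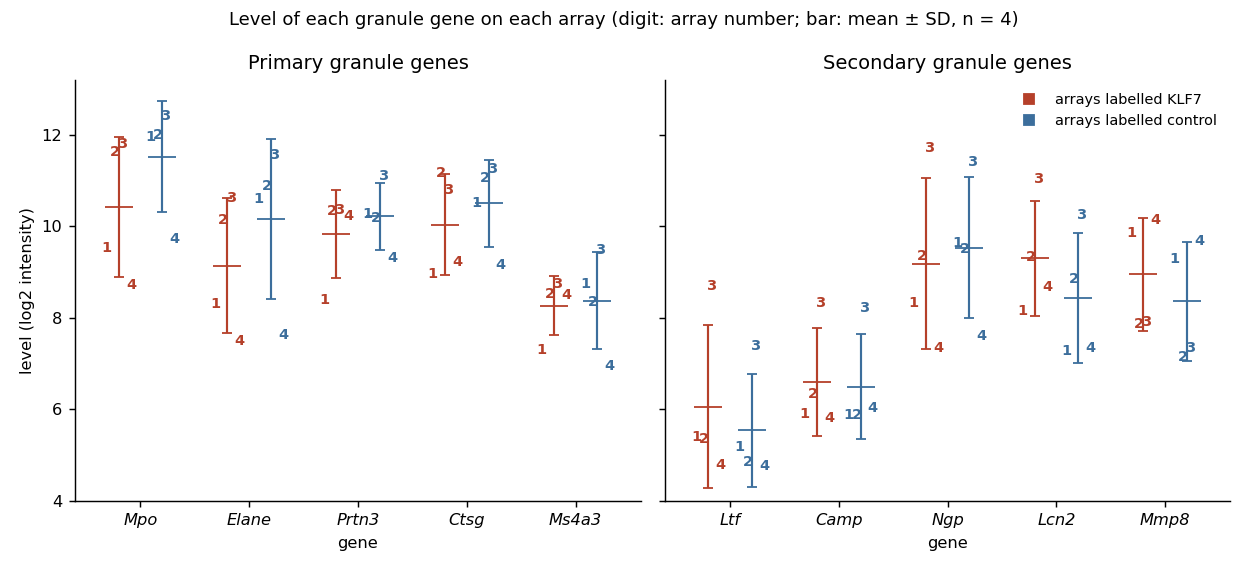
Log2 intensity of each granule gene (y axis) on each array, primary genes on the left and secondary genes on the right, with KLF7 arrays in red left of control arrays in blue; each digit is the number of an array and the bars are mean ± SD (n = 4). The highest digit is the same in both groups for 9 of the 10 genes, and it is the 3 for 8 of them. Heights of the same digit can still lie far apart between the groups, with a KLF7 minus control difference of -2.43 in the widest pair of Mpo. The groups overlap for all 10 genes. Heights of different genes are not to be compared, since probe sets differ in how they read.

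Among the secondary genes, Ltf encodes lactoferrin, an iron-binding protein. It measured log2 levels of 5.40, 5.36, 8.69 and 4.78 on KLF7 arrays 1 to 4, against 5.18, 4.85, 7.38 and 4.75 on control arrays 1 to 4. The array numbered 3 stood far above the other 3 in both groups, and those lay below the array medians of 5.77 to 5.85. The arrays numbered 4 differed by only 0.03. The difference was 0.52 (SE 0.83, 95% interval -1.31 to 2.35, adjusted p 0.946 in limma), and it was -0.36 without KLF7 3 and 1.13 without control 3.

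Camp encodes the cathelicidin antimicrobial peptide and Ngp a related granule protein of the cystatin fold. The log2 levels of Camp were 5.89, 6.33, 8.33 and 5.80 on KLF7 arrays 1 to 4, against 5.87, 5.87, 8.20 and 6.03 on control arrays 1 to 4. Those of Ngp were 8.32, 9.35, 11.71 and 7.35 on KLF7 arrays 1 to 4, against 9.64, 9.49, 11.40 and 7.60 on control arrays 1 to 4. For both genes the arrays numbered 3 were again the highest. Same-numbered arrays differed by -0.23 to 0.46 for Camp and by -1.31 to 0.31 for Ngp. The difference was 0.09 for Camp (SE 0.63, adjusted p 0.991 in limma) and -0.35 for Ngp (SE 0.93, 95% interval -2.41 to 1.71, adjusted p 0.970 in limma). Ngp was the 1 secondary gene with a lower mean on the KLF7 arrays, and its difference was 0.26 without KLF7 4 and 0.27 without control 3. Camp turned to -0.49 without KLF7 3, and lay at 0.66 without control 3.

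Lcn2 encodes lipocalin 2, which binds bacterial siderophores and is also made by many cells under inflammatory signals. Its log2 levels were 8.15, 9.33, 11.04 and 8.68 on KLF7 arrays 1 to 4, against 7.27, 8.85, 10.26 and 7.34 on control arrays 1 to 4. The arrays numbered 3 were the highest and those numbered 1 the lowest in both groups, and each KLF7 array lay above the control array of its number, by 0.89, 0.48, 0.78 and 1.34. The means were 9.30 ± 1.25 on KLF7 arrays and 8.43 ± 1.42 on control arrays (SD, n = 4 each), a difference of 0.87 (SE 0.73, 95% interval -0.75 to 2.49, adjusted p 0.859 in limma). It lay between 0.29 (without KLF7 3) and 1.48 (without control 3) with single arrays left out.

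Mmp8 encodes neutrophil collagenase, and it went the other way from the other 4 secondary genes over the arrays. Its log2 levels were 9.86, 7.87, 7.91 and 10.14 on KLF7 arrays 1 to 4, against 9.27, 7.15, 7.34 and 9.67 on control arrays 1 to 4. The arrays numbered 4 and 1 were high and those numbered 2 and 3 low in both groups. Each KLF7 array lay above the control array of its number, by 0.59, 0.72, 0.57 and 0.48, which is the narrowest range among the 10 genes. The difference of the group means was 0.59 (SE 0.69, 95% interval -0.94 to 2.12, adjusted p 0.929 in limma), so the steady step within each number was smaller than the spread between numbers. With single arrays left out, that difference ran from 0.19 (without control 2, and likewise without KLF7 4) to 1.03 (without control 4).

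**Figure D2:**
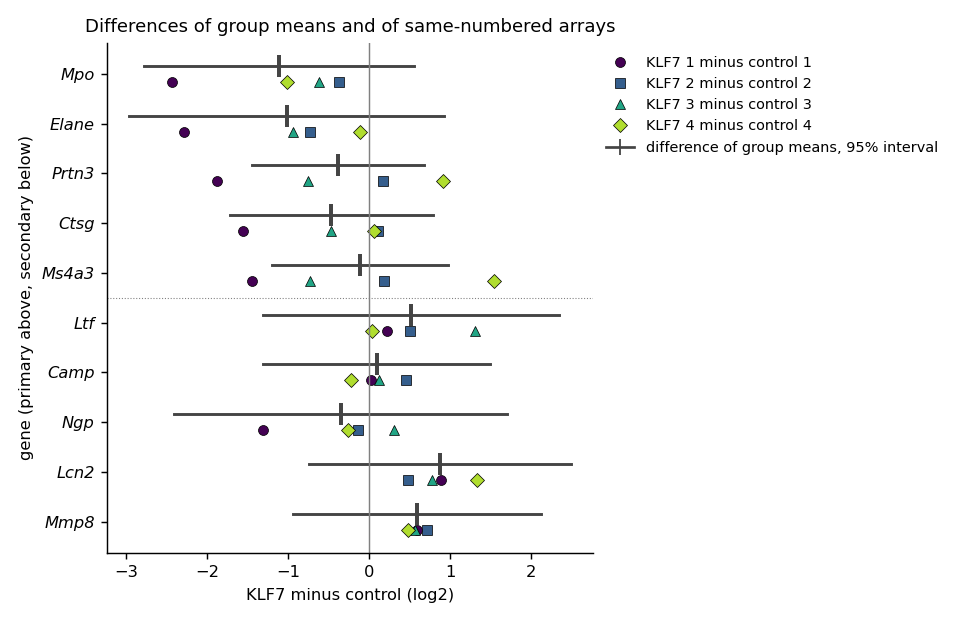
KLF7 minus control in log2 units (x axis) for each granule gene (rows, primary genes above the dotted line and secondary genes below): the bar gives the difference of group means with its 95% interval, and the 4 symbols the differences of same-numbered arrays. All 10 intervals include 0, while Mpo and Elane lie left of 0 and Ltf, Lcn2 and Mmp8 right of 0 at all 4 numbers (Ltf by 0.03 at number 4).

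Over all genes, limma with Benjamini-Hochberg adjustment called 0 of 19938 (0%), with 1637 at an unadjusted p under 0.05 (8.21%), and of the 10 granule genes 0 passed either threshold. The median difference of the 5 primary genes was -0.47 and that of the 5 secondary genes 0.52, against 0.0019 over all genes. With each array left out in turn, the primary median reached -0.91 (without control 4) and -0.11 (without KLF7 1). The secondary median turned to -0.36 without KLF7 3 and was at most 0.75 (without KLF7 2). Without both arrays numbered 2, where Klf7 crossed, the medians were -0.66 and 0.52, and without both arrays numbered 4 they were -0.82 and 0.63. The groups overlapped for all 10 granule genes, while they did not overlap for 5.22% of all genes.

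Same-numbered arrays gave 1 direction at all 4 numbers for 5 of the 10 genes: lower on the KLF7 arrays for Mpo and Elane, and higher for Ltf, Lcn2 and Mmp8. Ltf was higher by only 0.03 at number 4, where it was dim. Over all genes 20.9% did so, 9.68% lower and 11.2% higher. The signs were mixed for Prtn3, Ctsg, Ms4a3, Camp and Ngp. The number 1 arrays gave the most negative difference of each primary gene, from -1.44 (Ms4a3) to -2.43 (Mpo), and also that of Ngp (-1.31). The labels do not say that a number marks a shared culture or day.

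The granule genes were among the most variable genes on these arrays. Their residual SD, the spread left within groups, ran from 0.85 (Prtn3) to 1.72 (Ngp) log2 units, against a median of 0.24 over all genes, and each lay above the 98.5th percentile of that spread. Of the sum of squares over the 8 arrays, the array number took 45.8% (Ms4a3) to 98.3% (Camp), with a median of 83.6% over the 10 genes and 51.6% over all genes. For Ms4a3 the remainder was larger than the number's share, at 53.6%, and for Prtn3 they were nearly equal, with 46.7% for the remainder and 46.9% for the number. For the other 8 genes the remainder was at most 13.4% (Ctsg). The group took 0.22% (Camp) to 17.7% (Mpo), with a median of 6.42% over the 10 and 8.99% over all genes. The number has 3 of the 7 degrees of freedom and the group 1. The highest array had the same number in both groups for 9 of the 10 genes, all but Ctsg, against 38% of all genes. It was number 3 for 8 of the 10, against 7.4% of all genes. The lowest array had the same number in both groups for 6 of the 10, against 35.9% of all genes.

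**Figure D3:**
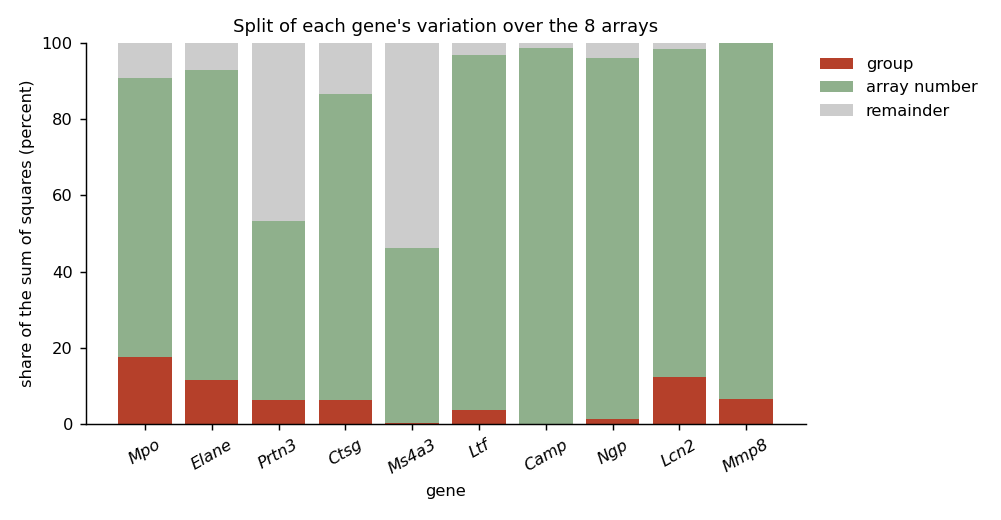
Share of each granule gene's sum of squares over the 8 arrays (y axis, percent) held by the group (red), the array number (green) and the remainder (grey). The group holds at most 17.7% (Mpo), and the number over 90% for Ltf, Camp, Ngp and Mmp8.

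Other genes correlated with the granule genes over the arrays. The 5 genes most like the mean level of the primary genes, by Pearson's r over the 8 arrays, were Cldn15 (0.988), Svip (0.977), Pgr (0.976), Gng12 (0.975) and Ap3s1 (0.965). For the secondary mean they were 5033430I15Rik (0.985), Ets1 (0.981), Il17c (0.957), E030011O05Rik (0.954) and Cyb5r4 (0.946). These genes were picked for their r, so no p is given. Because Mmp8 went its own way, the genes most like it alone were also taken, a choice made after its values were seen: Vcan (0.994), Hmox1 (0.976), Myof (0.972), Rassf9 (0.968) and Tlr8 (0.967). Rassf9 was dim, at 2.40 to 2.76 over the 8 arrays. Vcan encodes versican, a matrix proteoglycan made by monocytes. Its log2 levels were 7.91, 5.98, 6.18 and 8.34 on KLF7 arrays 1 to 4, against 7.46, 4.94, 5.49 and 7.96 on control arrays 1 to 4, high on the arrays numbered 1 and 4 as Mmp8 was. Hmox1 encodes heme oxygenase 1, which macrophages use to break down heme, and had 9.91, 8.78, 8.82 and 10.26 on KLF7 arrays and 9.73, 8.59, 8.85 and 10.15 on control arrays.

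**Figure D4:**
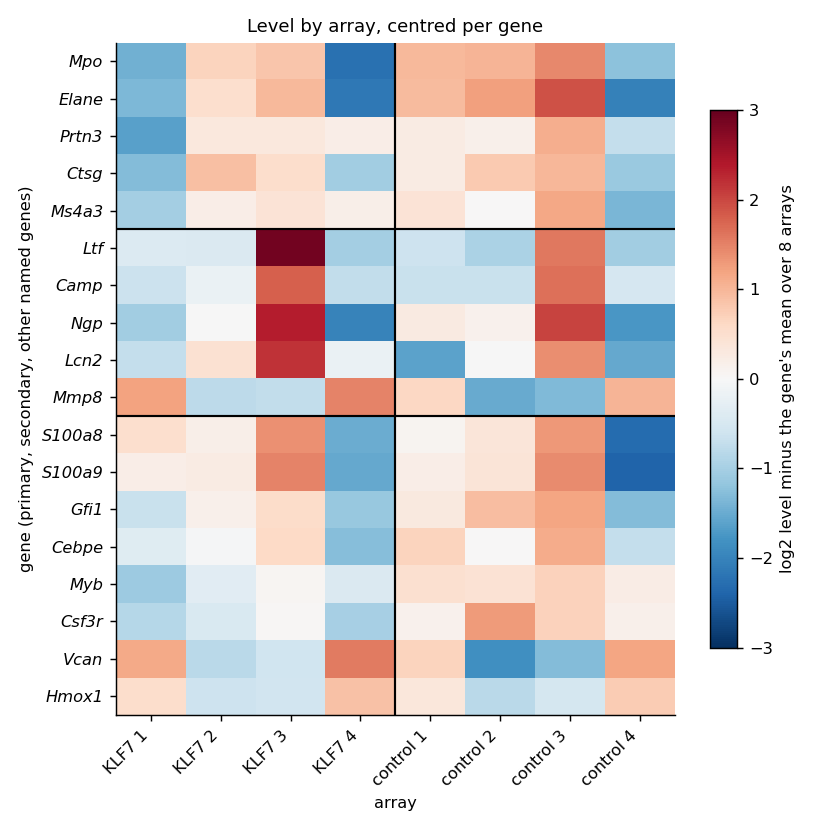
Log2 level minus the gene's mean over the 8 arrays (colour) for the granule genes and 8 other named genes (rows) on each array (columns, KLF7 arrays left of the black line and control arrays right of it). Ltf, Camp, Ngp and Lcn2 are darkest red in the columns numbered 3 of both groups, and Mmp8, Vcan and Hmox1 are red in the columns numbered 1 and 4.

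The cells that could carry these transcripts were followed through marker lists, and in sorted populations fewer cells of a type and less RNA per cell cannot be told apart. Of the 11 measured markers of mature neutrophils, 10 averaged higher on the KLF7 arrays (50.4% of all genes did). At an unadjusted p under 0.05 in limma were 3 of the markers, against 8.21% of all genes. Of these 3 markers, 2 were higher, and Csf3r was lower (-1.13, SE 0.30) with no overlap between the groups. The summed intensity of the 11 ran from 3036 to 14898 on KLF7 arrays and from 2192 to 13490 on control arrays. S100a8 and S100a9, which encode the abundant calcium-binding proteins of neutrophils and monocytes, made the arrays numbered 3 the highest of both groups (S100a8 at 12.65 on KLF7 3 and 12.57 on control 3) and those numbered 4 the lowest (9.78 on KLF7 4 and 8.98 on control 4). Ly6g, the surface antigen of mature neutrophils, lay at 3.63 to 4.96 on KLF7 arrays, highest on KLF7 3, and at 4.03 to 4.36 on control arrays. Stfa2, a stefin of neutrophils, lay at 2.49 to 3.13 on KLF7 arrays and at 1.76 to 2.52 on control arrays. Array levels have no true 0, so none of these markers can be called absent.

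Of the 17 markers of monocytes, macrophages and dendritic cells, 12 averaged higher on the KLF7 arrays (50.4% of all genes did). In limma, 8 of the 12 had an unadjusted p under 0.05 and 0 passed after adjustment. Over all genes 4.65% were higher at that unadjusted p. Their summed intensity ran from 6839 to 16391 on KLF7 arrays and from 2903 to 8684 on control arrays. The mean log2 level of this list was lowest on the array numbered 3 of both groups, at 7.28 on KLF7 3 and 6.60 on control 3, where Mmp8 was low and the other secondary genes were high. Of the 14 markers of mast cells, basophils and eosinophils, 6 had a higher mean and 8 a lower one, and the sum ran from 1913 to 22472 on KLF7 arrays and from 1629 to 17786 on control arrays. Their mean log2 level on the arrays numbered 4, 6.27 for KLF7 4 and 6.12 for control 4, lay below that of every other array (8.13 to 9.36 on KLF7 arrays and 8.66 to 9.15 on control arrays), as the level of Elane did. Of the 10 stem and progenitor markers 7 had a higher mean, of the 10 erythroid and megakaryocyte markers 2, and of the 15 lymphoid markers 7, against 50.4% of all genes. The part of these cell types in the granule gene levels was not tested.

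The other genes of the granule pathway were read from lists, in which 0 genes passed limma with adjustment over all genes. Over all genes 50.4% averaged higher on the KLF7 arrays, and 8.21% had an unadjusted p under 0.05 in limma. Of 12 other primary granule and lysosomal genes 10 averaged higher on the KLF7 arrays, and their median difference was 0.48, opposite in sign to the primary genes above. At an unadjusted p under 0.05 were 3, all higher: the lysosomal protease genes Ctsd (0.73, SE 0.17) and Ctsh (1.04, SE 0.25) and Hexa, which encodes a subunit of the lysosomal enzyme hexosaminidase (0.67, SE 0.27). These 3 are lysosomal genes of many cell types. Prss57, a neutrophil serine protease of the primary granules and named after its values were seen, was on the other side at -0.57 (SE 0.36). Ctsd had a tighter spread, at 10.86 to 11.23 on KLF7 arrays and 10.12 to 10.50 on control arrays, with no overlap and an adjusted p of 0.323 in limma.

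Of 22 other secondary and tertiary granule genes 16 averaged higher, with a median difference of 0.17, and 4 were at an unadjusted p under 0.05. These 4, all higher, were Anxa1, which encodes the phospholipid-binding annexin A1 (1.32, SE 0.32), Mmp25, a membrane-bound matrix protease gene (1.36, SE 0.33), Adam8, a membrane metalloprotease gene (1.23, SE 0.35), and Itgam, the integrin CD11b (0.56, SE 0.23), with adjusted p values of 0.323 to 0.558 in limma. Itgam lay at 9.43 to 10.46 on KLF7 arrays and at 9.23 to 9.59 on control arrays. CD11b is a usual target of lineage depletion, and the antibodies of this sort are not named in the labels.

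Of 11 genes that process, sort or inhibit the granule proteases 7 averaged higher, and the median was 0.09. Ctsc, which encodes the dipeptidase that activates elastase, proteinase 3 and cathepsin G, was the 1 member at an unadjusted p under 0.05, at 10.07, 9.45, 9.29 and 9.94 on KLF7 arrays 1 to 4 against 9.30, 8.69, 8.74 and 9.18 on control arrays 1 to 4 (0.71, SE 0.24, adjusted p 0.442 in limma). It was thus higher on each KLF7 array than on the control array of its number, while Mpo and Elane were lower. Srgn, which encodes the proteoglycan serglycin that holds the proteases in the granule, was at 0.09 (SE 0.29).

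Of 24 transcription regulators of granulocytes 15 averaged lower on the KLF7 arrays, the median being -0.15, and 5 had an unadjusted p under 0.05. Lower were Myb (-0.91, SE 0.24, adjusted p 0.356 in limma), Erg (-0.66, SE 0.25) and Cux1 (-0.44, SE 0.19), the last named after its values were seen, and higher were Id2 (0.87, SE 0.28) and Rara (0.58, SE 0.20). Myb, which drives primary granule genes, lay at 8.53, 9.26, 9.66 and 9.17 on KLF7 arrays 1 to 4 against 10.08, 10.04, 10.30 and 9.82 on control arrays 1 to 4, with no overlap. The groups overlapped for Cebpa (-0.59, SE 0.29), Cebpe (-0.54, SE 0.44) and Gfi1 (-0.54, SE 0.53), a repressor needed for neutrophil maturation. Cebpe was highest on the array numbered 3 and lowest on that numbered 4 in both groups (7.76 and 5.89 on KLF7 arrays, 8.29 and 6.45 on control arrays). Spi1 was at 0.33 (SE 0.24) and Irf8, a regulator of the monocyte and dendritic branch, at 0.29 (SE 0.19).

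Of 21 receptor and surface genes 15 averaged higher, the median being 0.23, and 5 had an unadjusted p under 0.05, 4 of them higher. The lower one was Csf3r, the receptor of granulocyte colony-stimulating factor, at 6.78, 7.18, 7.66 and 6.63 on KLF7 arrays 1 to 4 against 7.76, 8.90, 8.33 and 7.79 on control arrays 1 to 4 (-1.13, SE 0.30, adjusted p 0.351 in limma). All 4 KLF7 arrays lay below the lowest control array. The higher ones were Csf2rb, the shared receptor subunit for interleukin 3 and granulocyte-macrophage colony-stimulating factor (0.83, SE 0.29), whose probes may also read its near-identical copy Csf2rb2 (0.80, SE 0.50), Clec5a (0.83, SE 0.31), Ptafr (0.62, SE 0.23) and Il6ra (0.48, SE 0.22), the last named after its values were seen. The members of all these lists were read in the same fit as the granule genes, and the share of all genes at an unadjusted p under 0.05 was 4.65% higher and 3.56% lower.

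**Figure D5:**
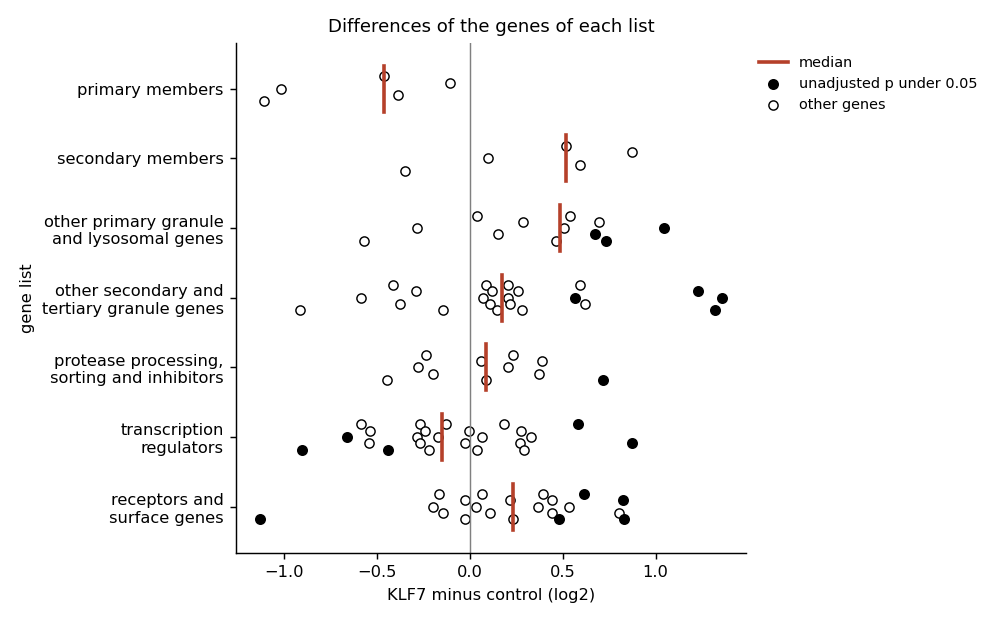
KLF7 minus control in log2 units (x axis) for every measured gene of the granule lists (rows), with filled points for an unadjusted p under 0.05 in limma, open points for other genes and a red bar at the median. The primary and secondary granule genes of this report hold no filled point, and Csf3r and Myb are the filled points farthest to the left.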

How the data were processed

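Total RNA of sorted cells, amplified and labelled with biotin per the labels' protocols, was measured on 8 single-colour arrays. The intensities deposited for the probe sets were made by RMA with Affymetrix Expression Console software, per the submitters' processing notes. No version or genome build is given in the sources used here. The intensities ran from 2.20 to 15393, and log2 of them was analysed. RMA and RNA amplification can compress the differences of dim genes. Of 35554 probe sets, 21789 carried 1 gene symbol, 1621 several and 12144 none. For 999 genes with several probe sets the one with the highest mean was kept, which gave 19938 genes.

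Group was the single term of a linear model (lmFit, then eBayes with a trend on intensity; limma 3.58.1 under R 4.3.3), tested on both sides with Benjamini-Hochberg adjustment over all genes. The scripts were tested on simulated data. Alternatives left out arrays, added the replicate number as a block, repeated the normalisation, weighted arrays, left out dim genes, averaged probe sets or dropped the trend. The granule genes and all lists were chosen with earlier results of these data known. Named are the granule genes, Klf7, the 5 genes most like each set's mean, up to 4 genes per list by smallest p, and Cebpa, Cebpe, Gfi1, Spi1, Myb, Irf8, Csf3r, Ly6g, S100a8, S100a9, Kit, Cd34, Ctsc and Srgn. Any other gene was named after its values were seen. Promoter sequences came from RefSeq (GRCm38.p6), matched by symbol for all 10 granule genes. Figures were drawn with matplotlib 3.10.9.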

Additional observations from a re-analysis of the deposited data

Results flagged for a closer look

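In a group of 4 arrays, a value was picked out when its gap to the next array, as a share of the whole range, exceeded Dixon's critical value at the 95% level. Of 158 groups looked at (79 named genes in both groups), 11 were picked out (6.96%), and chance alone picks out about 1 in 20.

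Of these, 5 belonged to granule genes. Ltf stood high on KLF7 3 at 8.69, with the other KLF7 arrays at 4.78 to 5.40, and high on control 3 at 7.38, with the other control arrays at 4.75 to 5.18. Camp stood high on control 3 at 8.20, with the others at 5.87 to 6.03. Prtn3 stood low on KLF7 1 at 8.39, with the others at 10.23 to 10.35, and Ms4a3 low on the same array at 7.30, with the others at 8.50 to 8.74.

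Among the other named genes, Ets1 stood high on KLF7 3 at 6.65, and Klrb1c, a natural killer cell receptor gene, stood low on KLF7 1 at 2.82. On control arrays, Mmp25 stood low on control 3 at 5.54, Csf2rb low on control 4 at 9.83, Klrb1c high on control 4 at 3.72 and Ly6g high on control 2 at 4.36.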

How the results depend on the processing

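All 10 granule genes missed the threshold under every one of the 18 settings in which they were measured; Ltf fell away with the dimmer 50% of genes left out. Mpo, Elane, Ctsg, Lcn2 and Mmp8 kept their sign under all of these settings, but their sizes moved: with single arrays left out they ran from -1.71 to -0.54 for Mpo, -1.87 to -0.47 for Elane, -0.91 to -0.11 for Ctsg, 0.29 to 1.48 for Lcn2 and 0.19 to 1.03 for Mmp8. Of 179 values of single genes, 13 turned sign. Leaving out each array in turn gave ranges of -0.69 to 0.091 for Prtn3, -0.58 to 0.26 for Ms4a3, -0.36 to 1.13 for Ltf, -0.49 to 0.66 for Camp and -1.19 to 0.27 for Ngp. Camp was at -0.020 with array weights and at -0.027 without both arrays numbered 2. The secondary median ran from -0.36 to 0.75 when each array was left out, and the cause was not tested. The Klf7 difference ran from 1.41 to 2.18 and passed its exact permutation test without control 2 (2.18, p 0.0286). The number of genes past the adjusted threshold was 0 to 1 when an array was left out.

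With the replicate block, 90 genes passed in limma, and 0 of the 10 granule genes did (smallest adjusted p 0.0802, Lcn2). Of the genes in the lists, 5 passed: Anxa1 (adjusted p 0.0349), Adam8 (0.04996), Itgax (0.0291) and H2-Aa (0.04996), which were higher on the KLF7 arrays, and Csf3r (0.0498), which was lower. Deviations of same-numbered arrays from their group means correlated at 0.35, -0.13, 0.36 and 0.70 for numbers 1 to 4, and since number 2 did not exceed 0.1 the numbers were not taken as pairs. As a hint from the data towards shared numbers, 6 of the 8 arrays, those numbered 1, 3 and 4, correlated best with the array of their own number in the other group. The count of genes with 1 direction at all 4 numbers was 5, and 5 to 6 with other scalings. Depth does not apply to arrays, and their number limits precision.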

Other observations

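The granule genes Epx and Prg3 of eosinophils, a neighbouring lineage, shared much of the array order of the neutrophil genes and differed mainly on control 1. On the KLF7 arrays Epx had the same order as Ltf. Epx, which encodes eosinophil peroxidase, lay at 8.19, 7.66, 10.88 and 6.92 on KLF7 arrays 1 to 4, against 11.16, 8.13, 10.77 and 7.23 on control arrays 1 to 4. It was high on the arrays numbered 3, as Ltf was, and on control 1, where Ltf was not. Prg3, an eosinophil granule protein gene, lay at 6.11, 6.76, 8.54 and 5.67 on KLF7 arrays and at 9.21, 6.68, 8.76 and 5.77 on control arrays. The differences were -0.90 (SE 0.99) for Epx and -0.83 (SE 0.80) for Prg3, with adjusted p values of 0.921 and 0.896 in limma.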
